A study of Mus musculus with 5 samples.

Results

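The PJ34 by Parp14 genotype comparison asked, gene by gene, whether the response of Th2 cells to the PARP inhibitor PJ34 differed between cells with and without PARP-14. For each gene the height of the RNA Polymerase II peak in untreated cells was divided by the height in PJ34-treated cells, once in Parp14+/+ cells and once in Parp14-/- cells, and the first ratio was divided by the second. A ratio of ratios above 1 thus means that the height with PJ34, relative to untreated, was lower where PARP-14 was present than where it was absent. Genes were kept when the average peak height times the number of active regions of the gene was 50 or more in at least 1 of the 4 libraries. Of 11608 gene lines in the table, 836 met this rule, and lines with identical values counted once, which left 734 entries. The limit is not a natural one: in 73 entries the highest library stood at exactly 50 or 51, and 61 further lines stopped at 49.

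Naive CD4+ T cells from spleens of C57BL6 mice were activated for 3 days under Th2 conditions with IL-4 at 10 ng/ml and expanded for 4 days. Chromatin was precipitated with an antibody to RNA Polymerase II phosphorylated at serine 2 of its carboxy-terminal repeat. There was 1 library each of Parp14+/+ cells, Parp14+/+ cells with PJ34, Parp14-/- cells and Parp14-/- cells with PJ34, and an Input library that mixed both genotypes in equal parts. The Parp14-/- mice lack PARP-14 in every cell, so differences that arose before the Th2 culture cannot be told apart from differences within it, and PJ34 was given at 10 µM by the labels, a dose that the study's methods state differently. With 1 library per condition, no difference has a replicate check, no p-value is given, and every value below describes these 4 libraries.

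PARP-14 is an ADP-ribosyltransferase with macro domains that works with STAT6, the transcription factor activated by IL-4, and so belongs to the pathway that makes Th2 cells. PJ34 competes with NAD+ in the catalytic pocket that PARP enzymes share, and it is therefore not specific to any member of the family. Polymerase phosphorylated at serine 2 is the elongating form, and its signal builds up along the gene body and usually peaks just past the polyadenylation site.

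The starts of 5 entries are shown because their heights stand out in the classes described below or because they hold the STAT motif. The capitals mark the STAT motif, searched as TTC and GAA with 3 or 4 bases of any kind between them, which reads the same on both strands and whose forms may overlap. Each sequence runs 5′ to 3′ on the strand of the gene, from 250 bases before to 50 bases after the start that the gene table gives, on NCBIM37, the assembly of mm9. Nr4a1 (chr15:101097043-101097342, plus strand) and Rpl13 (chr8:125626066-125626365, plus strand) had lower heights with PJ34 in Parp14+/+ cells alone, Gas5 (chr1:162965047-162965346, plus strand) lies in the only entry that went in opposite directions, Cish (chr9:107198770-107199069, plus strand) is a STAT5 target with 2 matches, and Il4 (chr11:53432118-53432417, minus strand), with 1 match, had lower heights with PJ34 in both genotypes.
Nr4a1: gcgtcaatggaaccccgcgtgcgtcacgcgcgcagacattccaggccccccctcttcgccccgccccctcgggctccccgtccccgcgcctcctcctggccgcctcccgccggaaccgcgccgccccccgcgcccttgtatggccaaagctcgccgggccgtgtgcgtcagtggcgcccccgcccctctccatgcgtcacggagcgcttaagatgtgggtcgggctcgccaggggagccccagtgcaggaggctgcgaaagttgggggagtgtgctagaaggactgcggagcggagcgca
Rpl13: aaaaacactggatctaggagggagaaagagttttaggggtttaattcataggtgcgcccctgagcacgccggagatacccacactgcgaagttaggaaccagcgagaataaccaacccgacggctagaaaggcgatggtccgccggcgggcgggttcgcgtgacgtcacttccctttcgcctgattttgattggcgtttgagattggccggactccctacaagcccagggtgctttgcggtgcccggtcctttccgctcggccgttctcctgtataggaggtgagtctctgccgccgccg
Gas5: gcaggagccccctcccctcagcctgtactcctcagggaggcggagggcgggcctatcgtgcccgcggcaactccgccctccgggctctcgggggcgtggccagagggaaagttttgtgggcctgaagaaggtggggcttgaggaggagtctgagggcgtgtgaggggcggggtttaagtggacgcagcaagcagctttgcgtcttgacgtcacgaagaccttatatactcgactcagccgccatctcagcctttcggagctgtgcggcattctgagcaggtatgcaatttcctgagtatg
Cish: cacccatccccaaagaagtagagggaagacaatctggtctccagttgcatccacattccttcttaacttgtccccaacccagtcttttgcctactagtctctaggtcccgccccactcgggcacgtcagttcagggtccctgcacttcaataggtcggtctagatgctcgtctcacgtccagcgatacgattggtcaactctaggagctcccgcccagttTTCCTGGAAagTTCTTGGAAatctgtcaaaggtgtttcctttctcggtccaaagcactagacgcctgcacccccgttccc
Il4: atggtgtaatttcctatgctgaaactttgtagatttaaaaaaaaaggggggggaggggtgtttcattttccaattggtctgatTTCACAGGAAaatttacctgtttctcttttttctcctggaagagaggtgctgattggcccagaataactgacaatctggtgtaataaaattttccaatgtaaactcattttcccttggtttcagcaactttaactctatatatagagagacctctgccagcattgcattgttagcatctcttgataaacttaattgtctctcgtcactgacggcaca

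The libraries had been reduced by the authors to one depth, and their heights were scaled here to a median ratio of 1 to Parp14+/+ over the 734 entries. The scale factors were 1.04 for Parp14+/+ with PJ34, 1.00 for Parp14-/- and 0.879 for Parp14-/- with PJ34, which was also the library with the fewest SICER intervals, 8841 against 10228 to 12014 in the others. Parp14 itself (chr16:35832964-35871586, minus strand) stood below the minimum, at 8, 11, 6.67 and 6.67 in the order Parp14+/+, Parp14+/+ with PJ34, Parp14-/- and Parp14-/- with PJ34. Intervals covered 22873 and 20836 bases of it in the Parp14+/+ libraries and 2686 and 3286 bases in the Parp14-/- libraries, which follows the genotype labels. All 7 T cell markers and all 4 Th2 markers had an interval in at least 1 library. Of the 4 B cell markers, 1 did, Cd79a, whose heights of 38, 36, 34 and 28 equal those of its neighbour Rps19, and the other 3 stayed between 2.5 and 6. The summed heights of the T cell markers were 92.5, 130.5, 99.5 and 88.5 in the same order of libraries, highest in treated Parp14+/+ cells, where Cd2 gave 61 of the sum. Those of the Th2 markers were 180, 151, 95 and 77. The part of these marker levels in the results was not tested, and in such bulk samples fewer cells of a type and less polymerase per cell cannot be told apart.

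The scaling set the median ratio of each library to Parp14+/+ to 1 over these entries. A median ratio of ratios near 1 was thus built in. The median ratio of ratios was 1.01, the middle 50% of entries lay between 0.879 and 1.18, and the extremes were 0.503 and 2.98. The ratio of ratios exceeded 1.4 in 86 entries (11.7%) and was below 0.7 in 31 (4.22%). The split depends on the scaling and on the height used, since without it the median ratio of ratios was 0.856, a shift of -0.24 on the log2 scale that all entries share, and the counts were 31 above 1.4 and 117 below 0.7. With the highest interval over the gene in place of the average they were 110 and 106, and with the highest interval within 5000 bases 106 and 116. A 95% interval was taken from the exact conditional odds ratio of the 4 summed heights, treated as counts, and covers counting error only. It left out 1 in 18 entries (2.45%), 15 above and 3 below, where a 95% interval would leave out 1 in up to 5% of entries if no ratio differed. Of these 18, 7 reached the minimum in all 4 libraries. The others met it only through their higher libraries, on which the ratio also rests. The upper limit of an interval was 3.12 times its lower limit in the median entry and from 1.75 to 5.33 times over all entries, and in 716 of 734 entries no difference between the genotypes was detectable at this depth.

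A response was called where the scaled ratio of untreated to PJ34-treated height was above 1.4 (lower with PJ34) or below 0.7 (higher with PJ34), and no response where it lay from 0.83 to 1.2. In Parp14+/+ cells 42 entries were above 1.4 (5.72%) and 16 below 0.7 (2.18%). In Parp14-/- cells 18 were above 1.4 (2.45%) and 28 below 0.7 (3.81%). The response was seen with PARP-14 only in 36 entries, 26 lower and 10 higher with PJ34, and without PARP-14 only in 25 entries, 8 lower and 17 higher. A further 4 entries were lower with PJ34 in both genotypes, none was higher in both, 1 went in opposite directions, 383 responded in neither, and 285 fell between the limits in at least 1 genotype. The interval left out 1 in 9 of the 61 entries with a response in 1 genotype only. For the other 52 the class rests on where the limits were put and not on a difference beyond counting error.

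**Figure D1:**
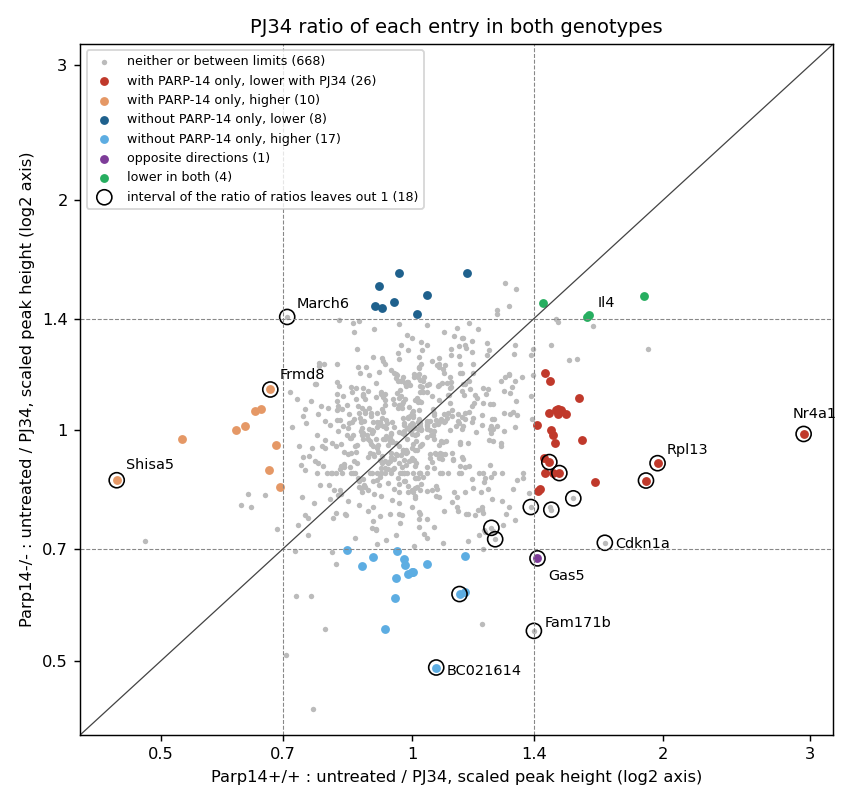
Scaled ratio of untreated to PJ34-treated peak height of each of the 734 entries in Parp14+/+ cells (horizontal, log2 axis) and Parp14-/- cells (vertical, log2 axis), with 1 library per condition. Colours give the response class with its number of entries, black rings mark the 18 entries whose 95% interval of the ratio of ratios leaves out 1, dashed lines are the limits of 0.7 and 1.4, and the diagonal is an equal response; Nr4a1 lies farthest to the right, at 2.95 with and 0.989 without PARP-14.

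Where PARP-14 was present only, 26 entries had a lower height with PJ34. Nr4a1, the orphan nuclear receptor Nur77 that T cell receptor signals induce, stood at 25.5 in Parp14+/+ cells and 9 with PJ34, and at 18 and 16 in Parp14-/- cells. The treated Parp14+/+ library was the lowest of the 4 and the 2 Parp14-/- libraries lay close together between the others. Its ratio of ratios was 2.98 (95% interval 1.37 to 6.54), the highest of the 734 entries. Its highest summit, 271 to 826 bases past the end of the gene, reached 45, 14, 34 and 29 in the same order of libraries.

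Rpl13, a protein of the large ribosomal subunit (chr8:125626316-125629140), stood at 53 and 28 with PARP-14 and at 34 and 33 without it. The untreated Parp14+/+ library was high and the other 3 lay within 6 of each other, and the ratio of ratios was 2.17 (1.06 to 4.45). The summit lay 909 bases past the gene end in 3 libraries and near the gene start in Parp14-/- cells with PJ34. Spg7, which codes for a mitochondrial protease, gave 33, 18, 22 and 22.5 and a ratio of ratios of 2.22 (1.19 to 4.14), but no interval covered any base of Spg7 itself in the 4 libraries. One of its 2 active regions is the Rpl13 peak, so the pair is 1 observation.

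The entry of Senp3, Tnfsf13 and BC096441 stood at 44, 30.5, 34.5 and 34.5, with a ratio of ratios of 1.71 (1.04 to 2.80). Its highest summit, 80, 52, 64 and 58, belongs to the neighbouring entry of Eif4a1, the helicase of translation initiation, whose own ratio of ratios was 1.65 (0.973 to 2.80). The entry of Cish, a suppressor of cytokine signalling that STAT5 induces, shares its region with Hemk1 and 6430571L13Rik and stood at 87, 62, 92 and 89. The treated Parp14+/+ library alone was low there, and the ratio of ratios was 1.61 (1.01 to 2.55). Of the 10 alternatives that gave it a value, its interval left out 1 only with 1 added to each height and with no tolerance on the minimum.

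The other 21 entries of this class had an interval that held 1. They include Fbl, the methyltransferase of nucleolar RNA processing, at 51, 32, 39 and 40 (ratio of ratios 1.94, 0.989 to 3.79). Ctla4, the inhibitory receptor of T cells, stood at 95, 70, 67 and 58, and the ratio of ratios was 1.39 (0.847 to 2.28). The entry that holds Tnfrsf4 and Tnfrsf18, which code for the costimulatory receptors OX40 and GITR, stood at 70, 46, 69 and 55. Nfkb1, joined with Manba, stood at 92, 64, 80 and 66. Over the class the PJ34 ratio ran from 1.41 to 2.95 with PARP-14 and from 0.832 to 1.19 without it.

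Where PARP-14 was present only, 10 entries had a higher height with PJ34, and in 2 the interval left out 1. Frmd8, a FERM domain protein of the iRhom pathway, stood at 63, 97, 99 and 77, with a ratio of ratios of 0.598 (0.378 to 0.945). Its summit lay 5533 to 5565 bases past the end of Frmd8, inside Neat1, a long noncoding RNA that builds nuclear paraspeckles, so the height is that of the neighbouring locus. The deposited line labelled 2310043N10Rik, which spans that locus and was named Neat1 from its identifier, stood at 69, 93, 94.5 and 79 (ratio of ratios 0.734). Untreated Parp14+/+ cells were lowest in both lines.

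Shisa5, an endoplasmic reticulum protein that p53 induces, stood at 17, 40, 23 and 23.5, with a ratio of ratios of 0.514 (0.279 to 0.946). Its summits lay 1129 to 1577 bases past its end, in Trex1 and Atrip. The value of 40 does not rest on 2 separate peaks. Shisa5 has 2 active regions, and in 3 libraries the one without an interval had a height of a few fragments, but in treated Parp14+/+ cells it was given 40, the exact height of the one interval. From the highest interval alone, the heights were 31, 40, 44 and 41 and the ratio of ratios was 0.807, with an interval that held 1.

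The other 8 entries of this class had intervals that held 1. Irgm1, an interferon-induced GTPase, stood at 31, 49, 91 and 75 (ratio of ratios 0.617, 0.344 to 1.10), so both Parp14-/- libraries were above both Parp14+/+ libraries. Cd2, an adhesion receptor of T cells, stood at 36, 61, 41 and 36 (0.613, 0.319 to 1.18), with the treated Parp14+/+ library alone high. The entry of Actb, the cytoskeletal actin, stood at 75, 116, 104 and 103, with the untreated Parp14+/+ library alone low. Lcp1, an actin-bundling protein of leukocytes, stood at 35, 53, 50 and 46, and Wiz, Mrpl27, Lmbrd1 and Luc7l made up the rest.

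Where PARP-14 was absent only, 17 entries had a higher height with PJ34 and 2 had an interval that left out 1. BC021614 (chr19:4057487-4059431) stood at 38, 37, 44 and 79, and its ratio of ratios was 2.18 (1.17 to 4.08). Its summit lay 202 to 1466 bases before the gene start, in no annotated gene, and its position differed between libraries. The treated Parp14-/- library was alone and the other 3 lay within 7 of each other, so the minimum of 50 was met through that library only. Wdr33, a subunit of the polyadenylation machinery, stood at 9.5, 8.67, 6.83 and 9.83 (1.87, 1.04 to 3.35), and its highest summit, 22, 20, 14 and 29, lay 3912 to 4264 bases past its end within Sft2d3. Among the 15 with an interval that held 1 were the immediate early genes Dusp4, a MAP kinase phosphatase, at 41, 46, 50 and 80, and Ier2, at 51, 53, 46 and 62. Rps20, of the small ribosomal subunit, stood at 30, 27, 35 and 50. Id2, an inhibitor of E proteins, stood at 82, 98, 68 and 90, and Tnks, which codes for the PARP enzyme tankyrase, at 12.4, 13.2, 14.2 and 18.4.

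Where PARP-14 was absent only, 8 entries had a lower height with PJ34, and the interval held 1 in each. Il7r, the receptor of the survival cytokine IL-7, stood at 47, 42, 62 and 34 (0.726, 0.386 to 1.37). Tank, an adaptor of TRAF signalling, stood at 10, 11.4, 11.6 and 6.6 (0.591, 0.320 to 1.09), and Rasgrp1, which couples the T cell receptor to Ras, at 10.75, 10.75, 17.5 and 10.25. The entry of Daxx, Zbtb22 and Tapbp stood at 39, 45, 71 and 43. Mgat5, a glycosyltransferase that modifies the T cell receptor, stood at 5.43, 5.86, 10.71 and 5.86. In these last 3 the untreated Parp14-/- library alone was high. Taok1, Cnot4 and LOC100043221 completed the class.

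The 1 entry with opposite responses holds Gas5, the host gene of a cluster of small nucleolar RNAs, with its neighbour Zbtb37. It stood at 53 untreated and 39 with PJ34 in Parp14+/+ cells, and at 41 untreated and 53 with PJ34 in Parp14-/- cells. The pairs thus mirrored each other, with a PJ34 ratio of 1.41 with PARP-14 and 0.680 without it, both just past the limits, and a ratio of ratios of 2.08 (1.12 to 3.87). The summit lay at the start of Gas5 in 3 libraries and outside the gene in untreated Parp14+/+ cells. With the libraries scaled over all genes with an interval in the 4 libraries, the entry no longer passed both limits and the class was empty. No entry was higher with PJ34 with PARP-14 and lower without it.

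In 4 entries the height was lower with PJ34 in both genotypes. Il4, the cytokine that defines Th2 cells, stood at 61 and 39 in Parp14+/+ cells and at 29 and 18 in Parp14-/- cells. Both treated libraries were below their untreated partner by a like factor, 1.63 with and 1.42 without PARP-14, and the ratio of ratios was 1.15 (0.670 to 1.96). Epn1, an adaptor of endocytosis, stood at 35, 22.5, 36 and 22.5, and the MAP kinase kinase Map2k3 at 51, 37, 75 and 45. The entry of U2af2, a splicing factor, with Zfp580 and Ccdc106, stood at 62, 34, 63 and 37.

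A further 8 entries had an interval that left out 1 without falling into a class, because 1 of their ratios lay between the limits. Cdkn1a, the cyclin-dependent kinase inhibitor p21 and a target of p53 (chr17:29230720-29237667), with the overlapping LOC100042815, stood at 54 and 33 with PARP-14 and at 30 and 37 without it. The direction differed between the genotypes, and the ratio of ratios was 2.39 (1.19 to 4.81). Hist1h2be, a histone H2B gene, stood at 29, 24, 29.5 and 36 (1.75, 1.01 to 3.02). Clasp1, which binds microtubule ends, stood at 10.67, 8, 8 and 8.86 (1.75, 1.03 to 2.99), and in 3 of the 4 libraries its summit lay over the small nuclear RNA U4atac within the gene. March6, a ubiquitin ligase, was the only one of the 8 below 1, at 6.71, 9.86, 8 and 5 (0.503, 0.276 to 0.917). Its summits lay 2133 to 2389 bases past its end. The highest interval that touched the gene stood at 13, 22, 7 and 15. It gave a ratio of ratios of 1.43, on the other side of 1. The interval of the peak past the end, 17 in untreated Parp14-/- cells, did not reach the gene there but did in the other libraries. With the highest interval within 5000 bases the ratio of ratios was 0.583, and its interval held 1.

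The remaining 3 took their heights from a neighbour. Vprbp, a substrate receptor of a CUL4 ubiquitin ligase, stood at 14.4, 10.2, 12 and 13.4 (1.87, 1.10 to 3.17) with a summit of 38, 31, 30 and 41 inside Manf. Atat1, the tubulin acetyltransferase, stood at 33.5, 28, 33.5 and 39.5 (1.67, 1.00 to 2.78) with a summit of 55, 47, 62 and 70 inside Ppp1r10, and over Atat1 itself the highest interval gave 1.03. Fam171b, a membrane protein, stood at 39, 29, 25.5 and 41 (2.56, 1.53 to 4.29) with a summit in the interval of Itgav, the integrin alpha V gene, 2132 to 3348 bases before its start. Its 41 repeats the fault seen at Shisa5, since the second region had no interval in Parp14-/- cells with PJ34 but was given 41, the height of the Itgav peak. Itgav itself stood at 75, 51, 49 and 41, and its ratio of ratios was 1.46 (0.812 to 2.61).

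**Figure D2:**
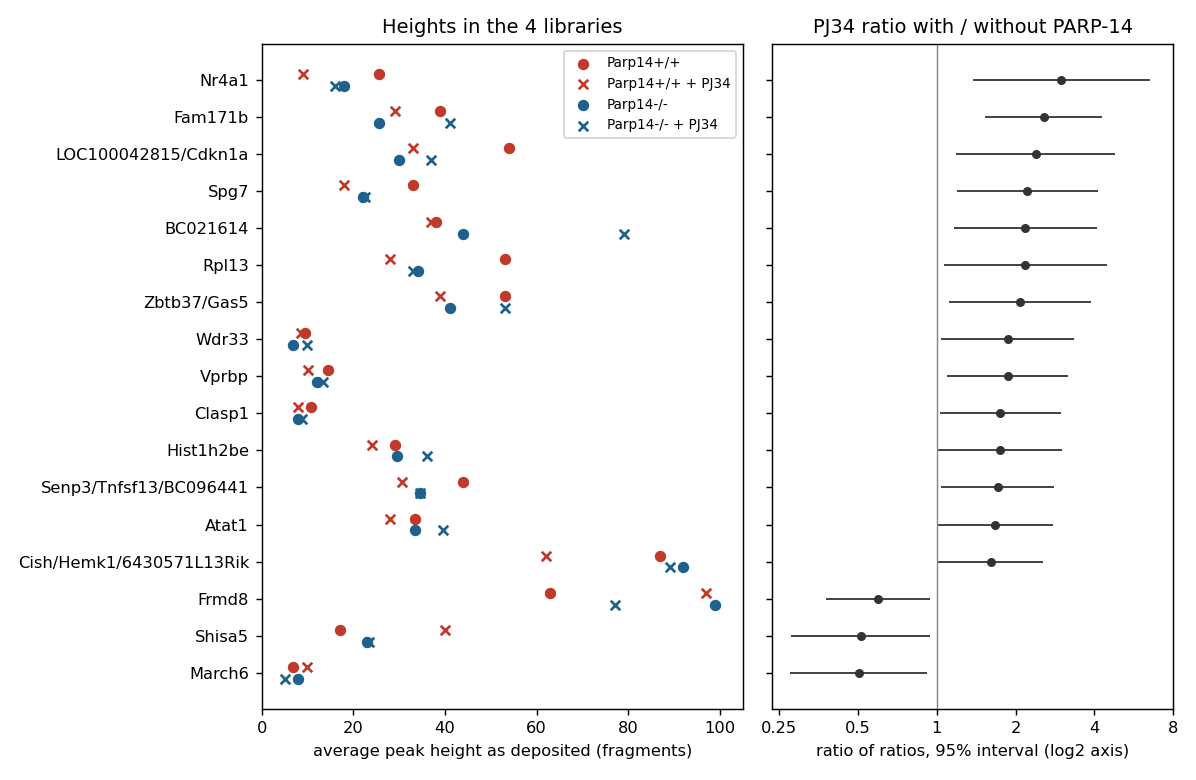
Entries whose 95% interval of the ratio of ratios leaves out 1, all but 1 of the 18. Left, average peak height in fragments as deposited, before scaling, in the 4 libraries (circles untreated, crosses with PJ34, red Parp14+/+, blue Parp14-/-); right, the ratio of ratios after scaling with its 95% interval for counting error (log2 axis), which lies below 1 in the 3 lowest entries and above 1 in the others.

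The repeated height was looked for in all kept lines. The regions of a gene were read back from the deposited tracks as those that overlap it or lie within 5000 bases, which gave the deposited number of regions for 799 of 836 lines. Where each region had an interval, the summed interval heights equalled the deposited sum within 0.5 in 1288 of 1324 pairs of line and library (97.3%). A region without an interval had a median height of 5.59. It carried the exact height of the highest interval of the gene, at 20 or more, in 2 pairs alone, Fam171b in Parp14-/- cells with PJ34 and Shisa5 in Parp14+/+ cells with PJ34, and both are among the 18. When every entry was given its highest interval within 5000 bases instead, 7 of the 18 kept an interval that left out 1. They were Nr4a1, the Cdkn1a entry, Rpl13 with Spg7, BC021614, Frmd8 and the Gas5 entry. For Rpl13, BC021614, Frmd8 and the Cdkn1a and Gas5 entries this height is the deposited one, so only the scaling changed. Spg7 took the Rpl13 peak. For these entries the result is no separate check, and the heights of Nr4a1 came from the same reads.

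Genes of the cytosolic ribosome lay on one side. All 9 kept entries had a ratio of ratios above 1, against 52.2% of all kept entries. Their median was 1.57 against 1.01 over the 734 entries, and 6 exceeded 1.4 (66.7% against 11.7%). Rpl13 (above) was highest, and Rps27, at 29, 30, 51 and 49 (1.10), and Rpl38, at 54, 48, 45 and 44 (1.30), were lowest, with Rpl4 also at 1.30. Rpl3 stood at 69, 55, 46 and 51, Rpl35a at 67, 59, 43 and 45, and Rpl24 at 23.67, 18.67, 20.33 and 21.33. The median PJ34 ratio was 1.18 with PARP-14 and 0.840 without it. Before scaling these ratios were 1.14 and 0.956, so the deposited heights in Parp14-/- cells were nearly equal with and without PJ34.

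With the minimum of 50 lifted, 7249 entries with an interval in at least 1 library gave a background of 19.0% above 1.4 and 15.0% below 0.7 and a median of 1.01. Of the 81 ribosomal protein entries among them, 69 were above 1 (85.2% against 51.7%), 36 exceeded 1.4 (44.4%) and 2 were below 0.7 (2.47%), with a median of 1.36. Their median scaled height was 29 in untreated Parp14+/+ cells and 22.9 with PJ34, against 23 and 26.4 in Parp14-/- cells. The last rests on the scale factor, since the median ratio of deposited heights was 1.14 with PARP-14 and 1 without it. Rpl26 (3.00) and Rps23 (2.92) lay at the upper end and Rps3 and Rpl37a, both at 0.698, at the lower end. Rpl26 stood at 26, 18, 15 and 27. Over all entries of the larger set the median rose with mean height, from 0.993 below 10 to 1.09 from 20 to 40. Among entries with a mean height of 20 or more, it was 1.36 for 60 ribosomal protein entries and 1.08 for all 749. Reads that match more than 1 place of the genome had been discarded, so genes with near-identical processed copies are measured with less certainty.

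Genes that serve ribosome production and protein folding lay on the same side in the larger set. Of 32 entries of ribosome biogenesis genes that MYC activates, 26 were above 1 (81.2% against 51.7% of all 7249 entries). Among the 32, 15 exceeded 1.4 (46.9% against 19.0%) and none was below 0.7 (15.0% of all were), with a median of 1.34. Of 31 heat shock and chaperone entries, 22 were above 1 (71.0% against 51.7%) and 14 exceeded 1.4 (45.2% against 19.0%), with a median of 1.36. Only 2 and 3 entries of these lists passed the minimum of 50, and they lay on both sides of 1. Fbl (above) was at 1.94 and Utp20, of the small subunit processome, at 0.940. Hspa5, the chaperone BiP, stood at 34, 45, 35 and 56 (1.43), the entry of the chaperone Calr was at 1.24, and Hsf1, the heat shock transcription factor, at 0.848. Of the 7 kept translation factor entries, 6 were above 1 (85.7% against 52.2% of all kept entries), with a median of 1.53. They were led by Eif6, at 52, 37, 37 and 41 (1.84), and Eif4a2, at 51, 40, 46 and 53 (1.74). Eif3h (0.969) and Eif4g2 (1.11) were lowest. In the larger set the 36 translation factor entries had a median of 1.08, so their kept values do not stand for the whole list.

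Interferon-induced genes lay on the other side. None of the 5 kept entries was above 1, against 52.2% of all kept entries, and their median was 0.837. Irgm1 (above) and Tgtp1, a GTPase of the same family with a near-identical neighbour Tgtp2, at 10.33, 14, 27 and 20.67 (0.669), were lowest, and Irf9, the DNA-binding subunit of an interferon-activated factor, at 73, 60, 103 and 63 (0.881), and Slfn2, at 22.5, 21, 28.5 and 20 (0.890), were highest. Gbp4, a guanylate-binding protein, stood at 50, 70, 96 and 95 (0.837). In the larger set 30 of 37 entries were below 1 (81.1% against 48.3%) and 14 were below 0.7 (37.8% against 15.0%). In that set 1 interferon-induced entry exceeded 1.4 (2.70% against 19.0%), and the list had a median of 0.790. Their median scaled height was 9 in Parp14+/+ cells and 11 with PJ34, against 16 and 15.4 in Parp14-/- cells. Stat2, joined with its neighbours, stood at 11, 21, 18 and 15 (0.504), and Irf7, the amplifier of type I interferon production, at 13, 24, 28 and 24 (0.536). Most of these heights are low, so single members carry little weight.

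Without scaling the medians of the Th2, JAK-STAT, T cell receptor, immediate early, NF-kB, splicing and microRNA lists were below 1 but above the unscaled median of all entries, 0.856. Of 8 kept entries of Th2 cytokines and regulators, 7 were above 1 after scaling (87.5% against 52.2% of all kept entries). None of the 8 exceeded 1.4, against 11.7% of all, and their median was 1.15. Il24 stood at 78, 63, 59 and 52 (1.29), and Rad50, the neighbour of Il13 that holds the Th2 locus control region, at 27, 21, 12.5 and 10.5 (1.28). Junb, a factor that binds the Il4 promoter, was lowest at 65, 73, 125 and 90 (0.759), followed by Satb1 at 89, 75, 99 and 77 (1.09). Gata3, the master regulator of Th2 cells, stood at 60, 58, 45 and 43 (1.17, 0.649 to 2.11). Il13 at 38, 33, 17 and 10 and Il5 at 21, 21, 4 and 6 were below the minimum, and their intervals ran from 0.287 to 2.17 and from 0.357 to 9.79, too wide to place them.

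Of 12 kept entries of JAK-STAT signalling, 8 were above 1 (66.7% against 52.2% of all kept entries), with a median of 1.09. Cish (above) and the shared entry of Stat3 and Stat5a, at 59, 46, 48 and 49 (1.55), were highest, and Il7r (above) and Il2ra, the receptor chain CD25, at 112, 138, 145 and 112 (0.742), were lowest. Il4ra, the receptor of IL-4, stood at 132, 110, 160 and 130 (1.15). Socs1, an inhibitor of JAK kinases, stood at 53, 52, 63 and 62 (1.19, 0.684 to 2.06). Stat4 stood at 5.89, 7.56, 8.89 and 8.89 (0.922, 0.558 to 1.52). Irf1, a transcription factor of the interferon response, stood at 86, 110, 144 and 119 (0.765, 0.518 to 1.13). Stat6, Socs2 and Socs3 were below the minimum, with intervals from 0.458 to 2.84, from 0.636 to 3.18 and from 0.614 to 2.75.

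T cell receptor and costimulation genes had a median of 1.05 over 8 kept entries, between Cd2 (0.613) with Cd69, at 29, 41, 88 and 86 (0.818), and the Tnfrsf4 entry (1.44) with Ctla4 (1.39). Immediate early genes ranged from 0.667 to 2.98, and their 16 entries had a median of 1.12, with 5 above 1.4 (31.2% against 11.7% of all entries) and 1 below 0.7 (6.25% against 4.22%). Of the 16, 15 had 1 active region. All kept entries with 1 region had a median of 1.14, with 23.8% above 1.4 and 3.85% below 0.7. Egr1, a zinc finger factor that signals induce within minutes, stood at 57, 124, 115 and 141, so the untreated Parp14+/+ library alone was low (0.667), while its relative Egr3 stood at 30, 41, 29 and 59 (1.76), with the treated Parp14-/- library alone high. Nr4a1 was the highest and Junb the next lowest. In the larger set the list had a median of 1.00, with as many entries above 1 as below it, 21 each.

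The 5 kept NF-kB entries had a median of 1.12, from Relb (0.859) and Nfkbiz (1.08) to Malt1 (1.24) and the Nfkb1 entry (1.404). The 11 entries of the splicing list, which also holds the nuclear RNA Neat1, had a median of 1.10, from the Neat1 line and the entry of Hnrnpa2b1 (0.806) to the entry of Srsf2, at 39, 41, 48 and 65 (1.53). The 6 histone entries had a median of 1.247, from the entry of H3f3b (0.936) and Hist1h2ab (1.13) to Hist1h2bc (1.53) and Hist1h2be. The 5 microRNA entries had a median of 1.05, from Mir21, at 78, 92, 121 and 108 (0.896), and the entry of Mirn715 (0.909) to Mir142, at 172, 182, 184 and 173 (1.05), and Mir155, at 54, 50, 50 and 53 (1.35). Of the PARP family, 3 entries passed the minimum, Parp11 (0.8302), Tnks (1.44) and Parp6, at 17.75, 14.25, 13.5 and 15.25 (1.67), and the 12 entries of the larger set had a median of 1.01. The 21 entries of Th1 genes, which Th2 cultures hold down, also had a median of 1.01 there.

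**Figure D3:**
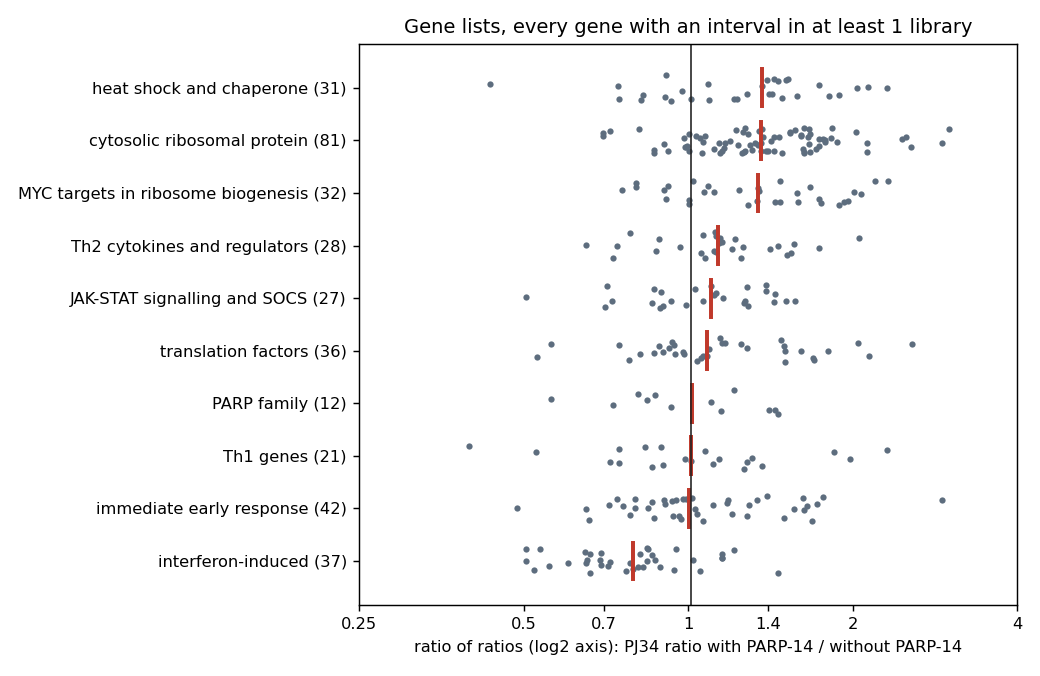
Ratio of ratios (log2 axis) of each entry of 10 gene lists among the 7249 entries with an interval in at least 1 library, with the number of entries in parentheses. Points are entries spread vertically for visibility, red bars are list medians and the vertical line is the median over all entries, 1.01; the medians run from 0.790 for interferon-induced genes to 1.36 for heat shock and ribosomal protein genes.

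The ratio of ratios moved with the number of active regions averaged for a gene. Its median was 1.14 in the 130 entries with 1 region, 1.06 in the 158 with 2 to 3, 0.967 in the 238 with 4 to 7 and 0.959 in the 208 with 8 or more. Values above 1.4 made up 23.8%, 13.3%, 10.9% and 3.85% of these groups, and responses in a single genotype made up 19.2%, 9.49%, 6.72% and 2.40%. Entries with many regions average many low heights, and 13 entries had no interval in any of the 4 libraries and entered by the number of their regions alone. Of the 9 kept ribosomal protein entries 8 had 1 region. Among the 2864 entries of the larger set with 1 region the median was 1.03, against 1.36 for 76 ribosomal protein entries. It was 1.47 for 23 ribosome biogenesis entries, 1.36 for 21 heat shock entries and 0.716 for 22 interferon-induced entries. At a mean height of 20 or more, where all entries had 1.08, these last 3 lists had 1.60, 1.41 and 0.752 over 14, 10 and 8 entries.

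**Figure D4:**
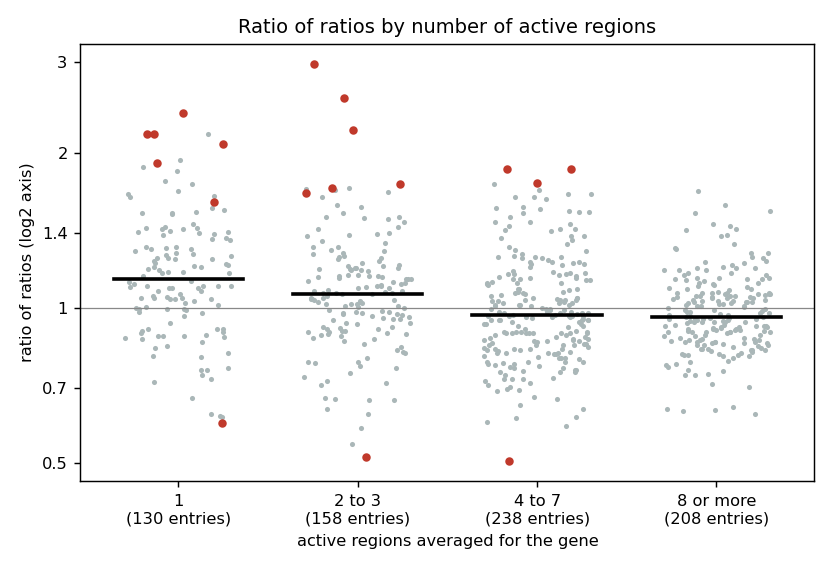
Ratio of ratios (log2 axis) of the 734 entries by the number of active regions averaged for the gene. Points are entries spread sideways for visibility, red points are the 18 whose 95% interval leaves out 1 and black bars are medians, which fall from 1.14 with 1 region to 0.959 with 8 or more.

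Each of the 4 libraries decided part of the high values. For each of the 86 entries above 1.4, the library whose scaled height lay farthest from the median of the other 3 was Parp14-/- with PJ34, high, in 29 entries, untreated Parp14+/+, high, in 25, Parp14+/+ with PJ34, low, in 19 and untreated Parp14-/-, low, in 13. Of the 26 entries lower with PJ34 with PARP-14 only, the untreated library was the high one in 14 and the treated library the low one in 12. Of the 31 entries below 0.7, untreated Parp14+/+ was low in 9, Parp14+/+ with PJ34 high in 10, untreated Parp14-/- high in 9 and Parp14-/- with PJ34 low in 3.

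The length covered by intervals is a second readout of the same reads. In the 26 entries lower with PJ34 with PARP-14 only, the median share of the gene covered was 63.0% untreated and 40.1% with PJ34 in Parp14+/+ cells, and 57.1% and 44.3% in Parp14-/- cells. In the 17 entries higher with PJ34 without PARP-14 only it was 40.8% and 31.8%, and 19.3% in both Parp14-/- libraries. In the 10 entries higher with PJ34 with PARP-14 only it was 45.3% and 42.9%, against 40.4% and 39.2%, and in the 8 entries lower without PARP-14 only 46.6% and 44.5%, against 28.5% and 16.4%. In both classes with a higher height under PJ34, the median cover was thus not higher in the library with the higher height.

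The STAT motif was found from 250 bases before to 50 after the start in 7 of 84 gene lines of these classes (8.33%) and in 91 of all 836 (10.9%). By class it was in 5 of 40 lines lower and 0 of 13 higher with PJ34 with PARP-14 only, and in 2 of 10 lower and 0 of 21 higher without PARP-14 only. In the wider window from 1000 before to 100 after the start it was in 41.7% of the lines of these classes and 45.0% of all.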

How the data were processed

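RNA Polymerase II Ser2P ChIP-Seq libraries of Th2 cells were analysed, 1 per condition. The heights are signal values that the authors deposited: reads were mapped to mm9 with ELAND, duplicates were removed, libraries were reduced to equal numbers of uniquely mapped alignments, and intervals were called with SICER against Input. A gene's height is the mean, over its active regions, of the highest pile-up of fragments, and 8 columns of libraries outside these samples were not used. Active regions had been merged over the 8 libraries of the table.

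Heights were divided by scale factors (median ratio of 1 to Parp14+/+). Summed height, the average times the number of regions, had to reach 50 with a tolerance of 0.2 for rounding. Lines with identical values on a chromosome, within 500 kb, counted once. Gene names came from position (784 of 836 lines, at least 50% overlap with GENCODE vM1 on NCBIM37), accession (21), identifier (8) or the deposited label (23), and 128 labels differed from the name used. Promoter sequences were read from the NCBIM37 genome. The 95% interval is the exact conditional interval of the odds ratio, applied to summed heights as counts. A pile-up maximum is not a set of independent reads, so it covers counting error at best.

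Entries named by rule are up to 8 per one-genotype class whose interval left out 1, the opposite class, 12 fixed study genes, and the 2 highest and 2 lowest of each gene list with at least 5 members. Other entries were named after their values were seen. The members and lists were chosen with earlier results of these data known. Some genes that these rules name are not reported here. The ratio of ratios and its interval were tested on simulated independent counts without scaling, which pile-up maxima are not. The classes were not tested on simulated data. Python 3.11.15, numpy 2.4.6, pandas 2.3.3, scipy 1.17.1 and matplotlib 3.10.9 were used.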

Additional observations from a re-analysis of the deposited data

Results flagged for a closer look

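The entry of Gas5 and Zbtb37 stood out because its PJ34 ratio lay past opposite limits in the genotypes, 1.41 with PARP-14 and 0.680 without it, which gave a ratio of ratios of 2.079. Among lists of at least 20 entries in the larger set, 4 had a median ratio of ratios farther from 1 than a margin set for this purpose. The median was 0.7905 for interferon-induced genes (PJ34 ratio 0.835 with and 1.10 without PARP-14), 1.363 for heat shock and chaperone genes (1.05 and 0.859), 1.343 for MYC targets in ribosome biogenesis (1.203 and 0.880) and 1.358 for cytosolic ribosomal proteins (1.19 and 0.909). With 1 library per condition none of these differences was tested.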

How the results depend on the processing

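No paired analysis was possible because each condition has 1 library. With 1 library each, no library could be left out. Counts are given below as above 1.4, below 0.7, interval leaving out 1, response with PARP-14 only, response without it only, and opposite responses, against 86, 31, 18, 36, 25 and 1 as reported. Without scaling the first 3 were 31, 117 and 38, and the response without PARP-14 only came to 49. A minimum of 30 gave 322, 223, 39, 142, 144 and 19 among 2342 entries. A minimum of 100 gave 2, 2, 1, 1, 0 and 0 among 98. A height of 50 in all 4 libraries gave 20, 8, 7, 8, 3 and 0 among 311, and 1 active region only gave 18, 11, 7, 15, 9 and 0 among 130. In these 4 settings fewer or more entries enter and the scale factors were set anew on them, so the counts of 1-region entries differ from those given above for the same entries under the scaling used throughout. Limits of 2 and 0.5 gave 8 above and 0 below, with 2, 1 and 0 in the classes. Counting every line gave 3 opposite responses, and scaling over all genes gave 0. Taking no response as 0.7 to 1.4 gave 41 without PARP-14 only. The highest interval over the gene gave 110 above 1.4, 106 below 0.7, 61 with, 63 without and 8 opposite, and that within 5000 bases, chosen after seeing the data, gave 106, 116, 58, 62 and 8. The cause of these last shifts was not tested.

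Of single entries, March6 reversed to 1.425 with the highest interval over the gene, and Fam171b gave 1.384 there and 1.375 within 5000 bases. Over the gene Wdr33 gave 4.661 and Atat1 1.027. An interval over a gene can have its summit outside it, as for March6. For Wdr33 the heights were 8, 8, 7 and 29. The 29 is the summit within Sft2d3, whose interval reached Wdr33 only in Parp14-/- cells with PJ34. Within 5000 bases Wdr33 gave 2.547, with an interval that held 1. Without scaling the list medians were 0.9729 for Th2, 0.8881 for T cell receptor, 0.9496 for immediate early, 0.9485 for NF-kB, 1.053 for histone and 0.8844 for microRNA genes. In the larger set translation factors had 1.08 and microRNAs 1.068, or 1.057 with 1 region only, a setting also chosen after seeing the data, as was the minimum with no tolerance. Without scaling the library apart was Parp14+/+, Parp14+/+ with PJ34, Parp14-/- and Parp14-/- with PJ34 in 14, 6, 3 and 8 entries above 1.4 and in 27, 25, 25 and 40 below 0.7. The wider promoter window held the motif in 45.0% of all lines and 41.7% of the one-genotype lines. Of the 18 entries whose interval left out 1, 7 still did so without scaling, 11 with scaling over all genes, 13 with geometric size factors and 18 with 1 added to each height. With the highest interval over the gene, 6 of the 16 with a value did so. Wdr33 was among them, and Rpl13, BC021614 and the Cdkn1a and Gas5 entries kept their deposited heights there. Of these 16, 15 stayed on the same side of 1. With 50 in all 4 libraries it was 5 of 7, and with 1 active region only 4 of 7.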
